A study of Mus musculus with 2 samples.

Results

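Goblet cells make the mucus that lines the intestine. This account follows 9 genes of that product in mouse enteroids, *Muc2*, *Tff3*, *Fcgbp*, *Zg16*, *Clca1*, *Spink4*, *Agr2*, *Spdef* and *Guca2a*. They were chosen by name, with earlier results of these data known, so their share of higher genes is a description. All 9 were listed in both single-cell libraries, among 16665 genes listed in at least 1 of them. Enteroids are cultured epithelial structures, here grown from ileal crypts of 4-month-old C57Bl6/129sv mice. The library labelled Taf4IEC came from *Taf4* lox/lox::VilCreERT2 enteroids, in which tamoxifen-inducible Cre recombinase is driven by the Villin promoter in the gut epithelium, treated with 1 µM 4-hydroxytamoxifen for 3 days up to day 8 of culture. The control library came from enteroids without the Cre, *Taf4* lox/lox in the study's methods and wild type in its label. For this library the methods give the same 4-hydroxytamoxifen treatment from day 5 and the label gives ethanol, and if the label holds, treatment and genotype cannot be told apart. Live cells of both were sorted and captured, and unique molecular identifiers (UMIs) were counted from the 3′ end of transcripts.

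The mucus of the gut is a gel of the mucin Muc2, which goblet cells fold in the endoplasmic reticulum, coat with sugars, pack into granules and release together with trefoil peptides and other proteins that bind, cut or protect the gel. Goblet cells arise with Paneth cells, which secrete antimicrobial peptides at the crypt base, from secretory progenitors that express *Atoh1*, and the factor Spdef takes part in the maturation of both. Taf4 is a subunit of TFIID, the complex that recruits RNA polymerase II to core promoters.

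Total UMIs were 39947009 over 2563 control cells and 24990128 over 1811 Taf4IEC cells. Depth per cell differed, with a median of 16749 and 2254 UMIs, and 17.3% and 49.1% of cells had fewer than 2000 UMIs. Both libraries shared 2 cell barcodes. Of 10 markers of cells outside the epithelium, 6 and 5 had no UMI, and the list summed to 0.0443 and 0.0236 UMIs per 10000. *Taf4* itself had 278 UMIs in the control and 236 in the other library, 0.0696 and 0.0944 per 10000, a log2 ratio of 0.44 (95% interval 0.18 to 0.70). Its transcripts were therefore not lower in the library labelled Taf4IEC, and counts from the 3′ end do not show whether the floxed part was lost. With 1 library per condition there was no replicate and no test was made. All intervals are 95% intervals for counting error alone (exact Poisson for levels, exact conditional binomial for ratios, Clopper-Pearson for shares).

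Levels are given as UMIs per 10000 UMIs of the cells concerned, and ratios as log2 of the Taf4IEC level over the control level. Over all cells, 8 of the 9 genes were at least 2-fold higher in the library labelled Taf4IEC, and none was at least 2-fold lower. Of 10002 genes with 200 or more UMIs in all, 5.52% were at least 2-fold higher and 3.48% at least 2-fold lower. The median log2 ratio was 1.502 for the 9 genes and 0.16 for the 10002 genes, which include them. *Clca1*, *Zg16* and *Muc2* had the largest ratios of the 9, and *Spdef* the smallest. *Clca1* reached 200 UMIs only through the Taf4IEC library, so its place among the genes counted follows from that minimum, and of the other 8 genes 7 were at least 2-fold higher.

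**Figure D1:**
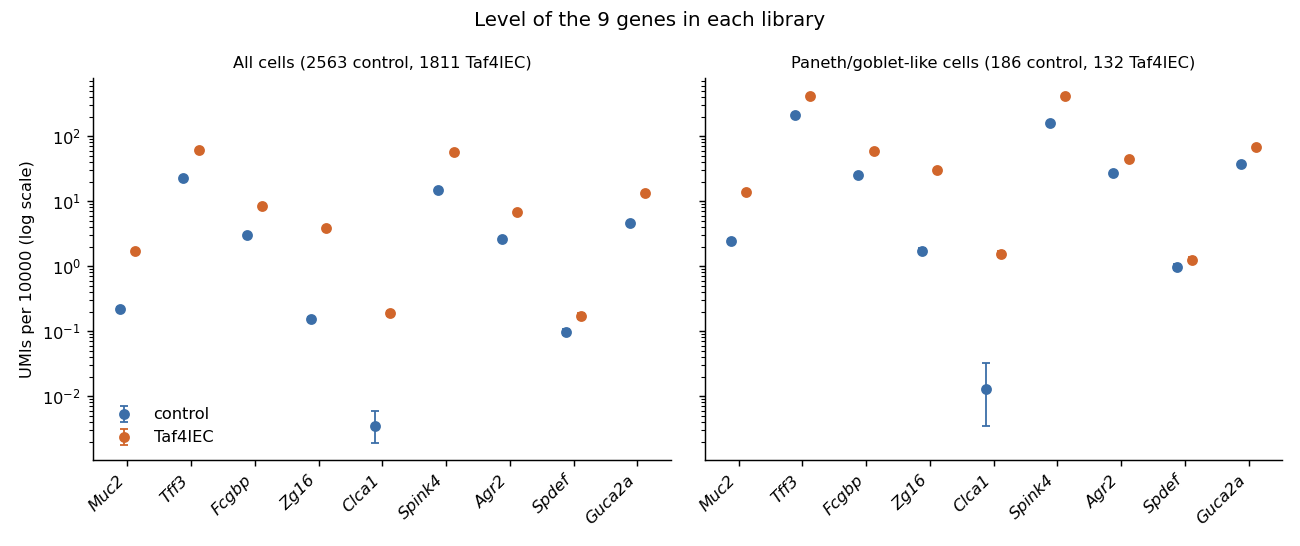
Level of each of the 9 genes, in UMIs per 10000 on a log scale, in the control (blue) and Taf4IEC (orange) libraries, over all cells on the left and Paneth/goblet-like cells on the right. Bars are 95% Poisson intervals, most of them smaller than the point. Each orange point lies above its blue partner, from *Spdef* (0.0964 and 0.170 over all cells) to *Clca1* (0.00350 and 0.190).

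*Muc2*, on chromosome 7 (141690340 to 141754691 in build GRCm38.p6, as are all positions here), encodes the gel-forming mucin itself. Its UMIs numbered 884 among control and 4334 among Taf4IEC cells, 0.221 and 1.73 per 10000. The Taf4IEC level was 7.84-fold higher, a log2 ratio of 2.97 (2.87 to 3.08). *Fcgbp*, also on chromosome 7 (28071236 to 28120864), encodes a large mucus protein that binds to Muc2. Its level was 2.99 in control and 8.34 in Taf4IEC cells, a log2 ratio of 1.48 (1.45 to 1.51). *Tff3*, on chromosome 17 (31125306 to 31129611), encodes the trefoil peptide that goblet cells release with the mucin. Control cells had 22.6 per 10000 and Taf4IEC cells 60.7, with a log2 ratio of 1.43 (1.41 to 1.44).

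*Zg16*, on chromosome 7 (127050156 to 127052675), encodes a lectin of the mucus that binds bacterial cell walls. It had 616 and 9477 UMIs, 0.154 and 3.79 per 10000, a log2 ratio of 4.62 (4.50 to 4.74). *Clca1*, on chromosome 3 (145004537 to 145032776), encodes a secreted metalloprotease that cuts Muc2 in the mucus. Control cells had 14 UMIs of it and Taf4IEC cells 474, 0.00350 and 0.190 per 10000, a log2 ratio of 5.76 (5.00 to 6.64). Among the 10002 genes the ratios of *Zg16* and *Muc2* took ranks 9 and 22. Like *Clca1* they were rare in the control, and few cells carried *Zg16* and *Clca1* in either library, as described further on.

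*Spink4*, on chromosome 4 (40920056 to 40931395), encodes a secreted protein of the Kazal family of protease inhibitors. It stood at 14.8 per 10000 in control and at 56.7 in Taf4IEC cells, a log2 ratio of 1.94 (1.93 to 1.96). *Agr2*, on chromosome 12 (35992925 to 36004081), encodes a protein disulfide isomerase of the endoplasmic reticulum that is needed to make Muc2. It stood at 2.59 and 6.69 per 10000, with a log2 ratio of 1.37 (1.33 to 1.41). *Guca2a*, on chromosome 4 (119637732 to 119639465), encodes guanylin, a peptide that acts on the receptor guanylate cyclase C and is made by goblet cells and by enterocytes. Its level was 4.65 and 13.2 per 10000, a log2 ratio of 1.502 (1.48 to 1.53). *Spdef*, on chromosome 17 (27714446 to 27731003), encodes an ETS transcription factor and was the gene under 2-fold. It had 385 and 425 UMIs, 0.0964 and 0.170 per 10000, with a log2 ratio of 0.82 (0.62 to 1.02).

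The 250 bases before the annotated start are shown for *Muc2*, *Guca2a* and *Spdef* because these genes had the largest, the next and the smallest ratio of those with a promoter in the RefSeq set for GRCm38.p6. Entries matched 5 of the 9 genes, the others being *Fcgbp* and *Agr2*. Each is printed 5′ to 3′ on the strand of the gene, ending at the base before the start, with motif matches in capitals. Positions are chr7:141690090-141690339 (plus strand) for *Muc2*, chr4:119637482-119637731 (plus strand) for *Guca2a* and chr17:27728952-27729201 (minus strand) for *Spdef*. The *Spdef* window lies inside the bounds given above for the gene, which reach 27731003. It therefore precedes a start within the gene and not its outermost one, unlike the windows of *Muc2* and *Guca2a*.
Muc2: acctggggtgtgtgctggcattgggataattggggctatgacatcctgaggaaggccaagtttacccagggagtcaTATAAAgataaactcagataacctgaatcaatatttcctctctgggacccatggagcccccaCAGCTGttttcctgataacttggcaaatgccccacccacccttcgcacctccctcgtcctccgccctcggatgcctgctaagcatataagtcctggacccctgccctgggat
Guca2a: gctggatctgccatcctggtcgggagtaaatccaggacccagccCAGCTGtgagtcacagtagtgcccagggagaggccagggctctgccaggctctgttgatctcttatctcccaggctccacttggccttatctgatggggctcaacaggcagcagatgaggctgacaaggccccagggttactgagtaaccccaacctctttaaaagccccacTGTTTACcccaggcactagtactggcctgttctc
Spdef: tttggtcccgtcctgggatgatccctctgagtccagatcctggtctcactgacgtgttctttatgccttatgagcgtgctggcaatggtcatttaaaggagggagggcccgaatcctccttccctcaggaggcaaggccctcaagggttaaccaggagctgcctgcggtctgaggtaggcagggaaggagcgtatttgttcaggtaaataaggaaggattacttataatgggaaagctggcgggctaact
On both strands, 3 motifs were searched, TATAAA (a core promoter element), CAGCTG (an E-box, bound by factors of the class of Atoh1) and TGTTTAC (a forkhead site). TATAAA stood in 1 of the 5 promoters, that of *Muc2*, 174 bases before the start. CAGCTG stood in 3, in *Muc2* 112, in *Fcgbp* 208 and in *Guca2a* 206 bases before it, and TGTTTAC in *Guca2a* alone, 34 bases before it. Of 32851 promoters of equal length, 12.4% held TATAAA, 13.0% CAGCTG and 3.17% TGTTTAC. *Agr2* and *Spdef* held none of these letters in the window. A match is a description of the sequence and not a bound site.

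Each library was clustered without the 9 genes, so that clusters did not rest on them, and clusters were named from other marker genes. In each library a single cluster carried the goblet markers (17 of 18 met in the control, 16 of 18 in Taf4IEC) and equally the Paneth markers (15 and 16 of 17). Its leading genes were mostly Paneth genes, with 8 and 7 Paneth markers and no or 1 goblet marker among the first 10. These clusters are called Paneth/goblet-like. No cluster carried goblet markers alone, so the goblet label of the 9 genes could not be checked on a pure goblet cluster. They held 186 control and 132 Taf4IEC cells, with median depths of 16441 and 26294 UMIs. Among control cells, 76.0% of the summed UMIs of the 9 genes lay in this cluster, which held 7.85% of all UMIs, and in the Taf4IEC library 82.2% lay there against 11.96% of all UMIs.

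Within Paneth/goblet-like cells all 9 genes were again higher in the library labelled Taf4IEC, and 5 were at least 2-fold higher, or 4 of 8 without *Clca1*, which passed the minimum of 200 UMIs here too only through that library. Of 3173 genes with at least 200 UMIs in these cells, 2.11% were at least 2-fold higher and 1.26% at least 2-fold lower. The median log2 ratio was 1.22 for the 9 genes and 0.03 for the 3173. *Muc2* stood at 2.44 and 13.6 per 10000 in the control and the Taf4IEC library, a log2 ratio of 2.48 (2.37 to 2.59). *Zg16* stood at 1.74 and 30.02, with a log2 ratio of 4.11 (3.99 to 4.24). *Clca1* had 4 UMIs in the control cells and 459 in the others, 0.0128 and 1.54 per 10000, a log2 ratio of 6.91 (5.55 to 8.79).

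Of the more abundant products, *Spink4* stood at 161.0 and 408.2 per 10000, a log2 ratio of 1.34 (1.33 to 1.36), and *Fcgbp* at 25.2 and 58.9, a ratio of 1.22 (1.19 to 1.26). *Tff3* stood at 209.9 and 415.5, which at a log2 ratio of 0.99 (0.97 to 1.00) was just under 2-fold. The remaining members had smaller ratios. *Guca2a* stood at 37.5 and 67.7, a log2 ratio of 0.85 (0.82 to 0.89). *Agr2* stood at 26.6 and 44.4, a log2 ratio of 0.74 (0.70 to 0.78). *Spdef* stood at 0.973 and 1.26 with a log2 ratio of 0.38 (0.16 to 0.60). The ratios of the 9 genes thus ran from 0.38 for the transcription factor to 6.91 for the protease on the log2 scale, and the folding enzyme *Agr2* had a smaller ratio than the mucin it serves.

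**Figure D2:**
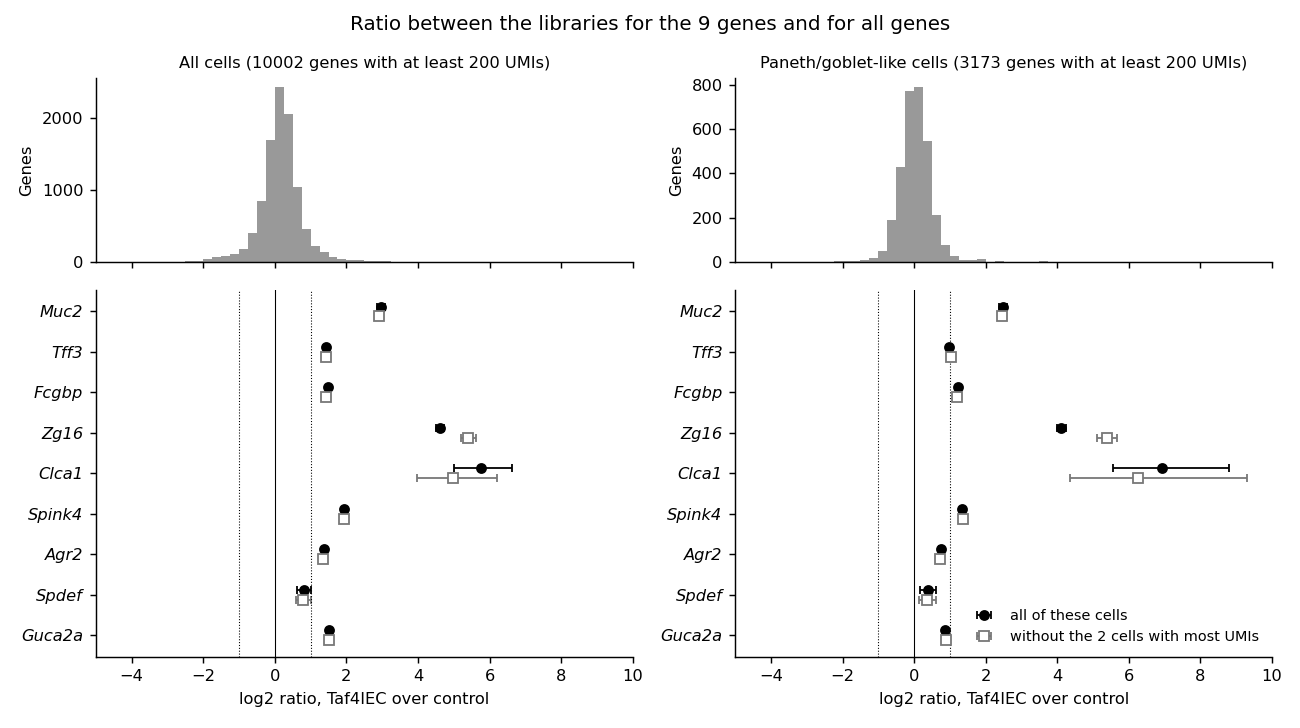
Ratio between the libraries on the log2 scale. The upper panels count all genes with at least 200 UMIs by ratio, and the lower panels show the 9 genes with 95% intervals, over the given cells (black) and without the 2 cells with most UMIs of the gene in each library (open squares). The dotted lines mark 2-fold, and 8 genes over all cells and 5 in Paneth/goblet-like cells lie to the right of it.

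Paneth genes were also higher in the same cells. Over all cells 13 of 16 Paneth markers with enough UMIs were at least 2-fold higher in Taf4IEC cells and none 2-fold lower, with sums of 22.2 and 76.2 per 10000. In Paneth/goblet-like cells 9 of 16 were at least 2-fold higher and 1 lower, with a sum of 233.6 and 549.0. *Lyz1* (lysozyme) stood at 33.0 and 114.8 in these cells and *Ang4* (an antimicrobial ribonuclease) at 18.4 and 90.4. *Clps* (colipase) stood at 9.93 and 4.65 and was the marker at least 2-fold lower. *Mptx2* had no UMI. Counts of α-defensin genes can be split between near-identical copies. Goblet markers that are not among the 9 genes had smaller ratios, as 1 of 15 was at least 2-fold higher and 2 were lower in Paneth/goblet-like cells, with a sum of 10.9 and 14.3. The part of these differences in the results for the 9 genes was not tested.

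The UMIs of *Zg16* and *Clca1* came from very few cells. Among control cells, 2 held 71.1% of the *Zg16* UMIs, with 248 and 190 of 616, and among Taf4IEC cells 2 held 50.2%, with 2543 and 2216 of 9477. *Clca1* had 206 and 111 of its 474 UMIs in 2 Taf4IEC cells, or 66.9%, whereas no control cell had more than 4. Intervals from counts treat UMIs as independent and so understate the error of all 9 genes, which are uneven across cells, and most of all that of *Zg16* and *Clca1*. Without the 2 cells with most UMIs in each library, the *Zg16* level over all cells was 0.0446 and 1.89 per 10000 with a log2 ratio of 5.41 (5.19 to 5.63), over 1.5 times the fold with them. The *Clca1* level without its 2 top cells was 0.00200 and 0.0630, a log2 ratio of 4.98 (3.96 to 6.21), so that its fold was lower by more than 1.5 times. Both stayed at least 2-fold higher. Among Paneth/goblet-like cells without the 2 top cells, *Zg16* had 107 and 4216 UMIs, a log2 ratio of 5.38, *Clca1* had 2 and 142, with 6.24 (4.36 to 9.30), and *Tff3*, with 1.02, came to lie just above 2-fold. *Muc2* was spread over more cells, since 24 control and 17 Taf4IEC cells held 50% of its UMIs, and its log2 ratio was 2.92 (2.81 to 3.03) without the top cells.

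**Figure D3:**
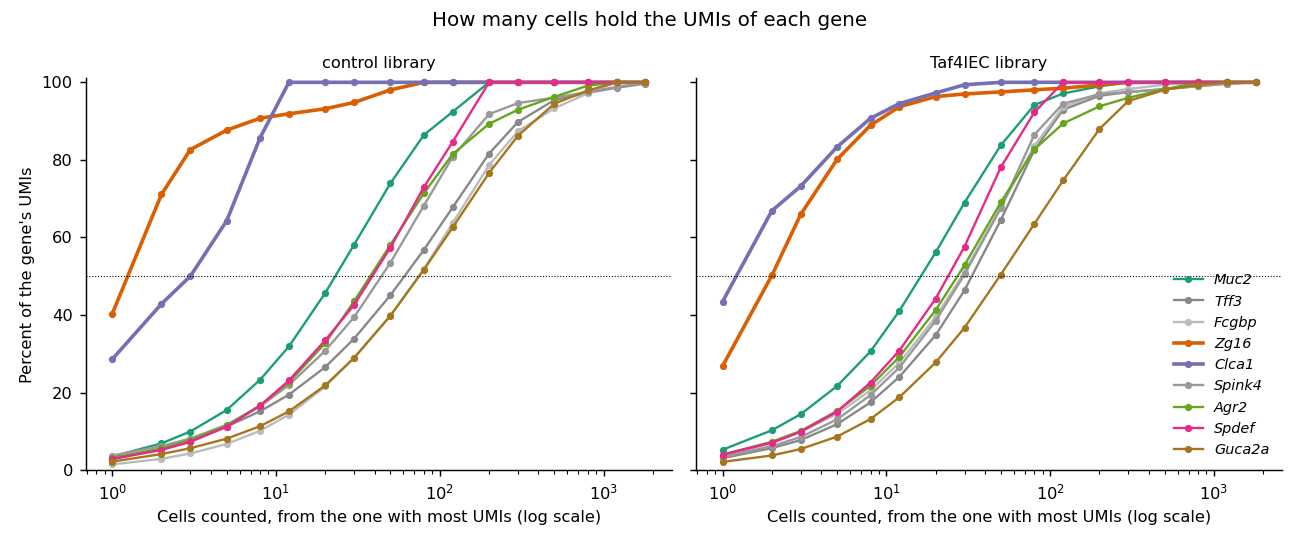
Percent of the UMIs of each gene held by the cells with most of them, against the number of cells counted on a log scale, for the control (left) and Taf4IEC (right) libraries. *Zg16* and *Clca1* reach the dotted line at 50% within 2 or 3 cells in both libraries, and the other 7 genes need between 17 and 76 cells.

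The cells with most *Zg16* also carried the other products. The first Taf4IEC cell had 41525 UMIs, with 2543 of *Zg16*, 1987 of *Tff3*, 3073 of *Spink4* and 228 of *Muc2*, the most *Muc2* of any cell. This cell also had 6678 UMIs of the α-defensin *Defa24*, 752 of *Ang4* and 41 of *Lyz1*. The second had 40893 UMIs, with 2216 of *Zg16*, 2739 of *Tff3* and 206 of *Clca1*, but 2 of *Defa24*, 52 of *Ang4* and 26 of *Lyz1*. The top *Zg16* cell of the control had 248 UMIs of the gene with 994 of *Tff3* and 10 of *Muc2*. It had 4 of *Defa24* and 3 of *Lyz1*, but 257 of *Ang4*. Thus cells rich in mucus genes differed widely in which Paneth transcripts they held and in their number.

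Over Paneth/goblet-like cells with at least 2000 UMIs (183 control and 106 Taf4IEC cells), *Tff3* and *Spink4* were detected in every cell of both libraries. The median *Tff3* level per cell was 153.9 for control cells, the highest at 1185, and 317.4 for Taf4IEC cells, which ran from 27.4 to 1047. The ranges of the 2 libraries overlapped almost wholly although the medians differed. *Muc2* had medians of 0.738 and 8.71 and highest cells of 18.8 and 67.0, and was at 0 in 72 control and 17 Taf4IEC cells. The upper quartile of the control cells, 3.24, was below the Taf4IEC median. *Spdef* had medians of 0.649 and 0.880, and *Zg16* and *Clca1* had a median of 0 in both libraries.

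Depth differed between the libraries, so shares of cells with at least 1 UMI were taken after each cell was thinned to 1000 UMIs, leaving out 216 control and 660 Taf4IEC cells with fewer. *Muc2* was then found in 2.09% of control cells (49 of 2347, interval 1.55 to 2.75%) and in 7.82% of Taf4IEC cells (90 of 1151, 6.33 to 9.52%), against 7.30% and 13.5% without thinning. In Paneth/goblet-like cells the share was 21.6% (15.9 to 28.3%) and 54.6% (45.2 to 63.8%), against 60.8% and 76.5% without thinning. Enterocyte-like cells should lack *Muc2* and serve as a rough guide to what free RNA can give. The guide is not clean, since 1 control cell of this class had 5 UMIs of *Muc2*, 22 of *Zg16* and 22 of *Fcgbp*. It also comes from deep cells and may not hold for shallow ones. In the unnamed Taf4IEC cluster of 490 cells, with a median depth of 618 UMIs, *Muc2* stood at 0.958 per 10000. Taf4IEC enterocyte-like cells had 0.0899. The source of the *Muc2* UMIs in the shallow cells was not tested. In enterocyte-like cells *Muc2* was in 0 of 212 thinned control cells, where a floor of 3 cells allows a share with a UMI of up to 1.42%, and in 1 of 147 Taf4IEC cells (0.680%), against 3.72% and 9.58% without thinning. The median depths before thinning in these cells were 21748 and 35697 UMIs.

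For *Zg16* the thinned share in Paneth/goblet-like cells was 4.32% (1.89 to 8.34%) for control and 17.6% (11.3 to 25.7%) for Taf4IEC cells, beside 0.472% and 2.72% in enterocyte-like cells. *Clca1* was found in 1 of 185 and in 8 of 119 Paneth/goblet-like cells. Over all cells without thinning, *Zg16* was in 2.42% and 14.6% and *Clca1* in 0.390% and 1.82%. *Tff3* was found in all of both, but also in 17.0% and 21.1% of enterocyte-like cells, and *Spink4* in 98.4% and 99.2% beside 13.7% and 25.2%. *Agr2* was found in 69.2% (62.0 to 75.8%) and 84.0% (76.2 to 90.1%) beside 1.42% and 3.40%. The share of *Spdef*, 11.4% and 6.72%, ran against its level, and no order was read from it. *Guca2a*, which enterocytes make, was found in 50% (43.1 to 56.9%) of control and 76.2% (68.5 to 82.8%) of Taf4IEC enterocyte-like cells.

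Compared with the Paneth/goblet-like clusters, the 9 genes were lower in the cells outside them in both libraries. There 6 of the 9 were at least 2-fold higher in Taf4IEC cells, and none was 2-fold lower, where 5.97% of 9832 genes with 200 UMIs were higher and 3.49% lower. *Clca1*, with 10 and 15 UMIs, was 1 of the 6, and it and *Spdef* did not reach 200 UMIs. *Muc2* (118 and 267 UMIs) and *Zg16* (71 and 502) reached that minimum only through the Taf4IEC library. Of the genes that did not depend on it, *Spink4*, *Agr2* and *Guca2a* were at least 2-fold higher, and *Tff3* and *Fcgbp* were not. *Muc2* stood at 0.0321 and 0.121, *Zg16* at 0.0193 and 0.228 and *Spink4* at 2.31 and 8.98, though single clusters held much of the difference, as the levels by class show. The 3 genes under 2-fold were *Tff3* (6.65 and 12.5, a log2 ratio of 0.91), *Fcgbp* (1.10 and 1.47, a log2 ratio of 0.41) and *Spdef* (0.0217 and 0.0214). The log2 ratio of *Spdef*, −0.02, had an interval from −0.58 to 0.51.

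By class, *Tff3* in both libraries fell from Paneth/goblet-like to enteroendocrine-like cells (18.9 and 39.6 for control and Taf4IEC), to stem-like cells (4.91 and 9.70) and to enterocyte-like cells (2.17 and 1.28), and no intervals of neighbours among these 4 classes overlapped. Tuft-like cells (80 and 15 cells) had 29.9 and 37.0. They stood above the enteroendocrine-like level in the control but not in the Taf4IEC library, where both intervals overlapped. In tuft-like cells some genes had ratios of the opposite sign. *Guca2a* stood at 5.96 and 0.421 there, a log2 ratio of −3.82 (−4.96 to −2.89), *Fcgbp* at 5.51 and 1.64, with −1.75 (−2.28 to −1.26), and *Agr2* at 1.01 and 0.327, with −1.62 (−2.96 to −0.54). The Taf4IEC values rest on 9, 35 and 7 UMIs. In enterocyte-like cells the log2 ratio of *Tff3* was −0.76 (−0.91 to −0.61).

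The class levels of stem-like cells hid a shallow cluster. In the Taf4IEC library 1 of 3 stem-like clusters, led by genes of mitosis such as *Cdc20* and *Cenpa*, had 214 cells with a median depth of 2382 UMIs, against 34708 and 37247 in the other 2. That cluster held 5730 of the 6599 *Spink4* UMIs of the class, at 32.5 per 10000, with *Lyz1* at 9.78. The deep clusters had *Spink4* at 1.19 and 1.15, inside the control range of 0.629 to 2.97 over 5 stem-like clusters, so the class values of 1.74 and 7.24 rest on the shallow cluster. The same held for *Tff3*, at 27.5 in the shallow and 5.47 and 5.21 in the deep clusters (control 1.81 to 9.501), and for *Guca2a*, at 5.35, 0.776 and 0.948 (control 0.209 to 1.33). *Muc2* had 65 of its 84 UMIs in the shallow cluster, at 0.369, and stood at 0.0230 and 0.0395 in the deep ones, where the control clusters ran from 0.00404 to 0.0401. *Agr2* was an exception, and *Zg16* in part. *Agr2* stood at 4.85 in the shallow cluster but also at 1.79 and 1.93 in the deep ones, above the highest control cluster, 0.982 (0.863 to 1.11). *Zg16* stood at 0.0575 (0.0401 to 0.0800, 35 UMIs) in the deep cluster of 178 cells, above the highest control cluster, 0.0192 (0.00919 to 0.0353). In the other deep cluster it stood at 0.0237 (0.00489 to 0.0693, 3 UMIs).

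Enteroendocrine-like cells, which secrete hormones, were uneven as well. *Spink4* stood at 7.13 in the control cluster led by *Gcg* and *Nts* and at 36.7 in the Taf4IEC cluster led by *Nts* and *Pyy*, which held 7445 of the 7883 *Spink4* UMIs of that class and had *Lyz1* at 20.9, against 1.58 in the control cluster. In the clusters led by *Tac1*, the gene of substance P, *Spink4* stood at 3.35 and 7.08, *Tff3* at 5.09 and 5.28 and *Agr2* at 0.607 and 0.466, and the intervals overlapped for *Tff3* and *Agr2*. *Agr2* over the whole class stood at 0.284 and 2.37, with 520 of 587 Taf4IEC UMIs in the cluster led by *Nts*, at 2.56. A shallow Taf4IEC cluster led by *Gcg* and *Cck* (73 cells, median depth 1036 UMIs) had *Agr2* at 4.06, from 52 UMIs, and *Spink4* at 16.4. Paneth markers summed to 8.93 and 56.8 per 10000 in the class. Whether these transcripts were made in those cells or came from free RNA was not tested.

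*Muc2* over all enteroendocrine-like cells was at 0.146 and 0.141, with 35 UMIs in each library, and its log2 ratio there was −0.05 (−0.77 to 0.67). In the control 1 cell held 22 of these 35 UMIs, with 711 of *Tff3* and 427 of *Spink4* among its 12083. The control level and the ratio therefore lean on that cell. Enterocyte-like cells had 12 and 41 UMIs of *Muc2*, 0.0273 and 0.0899 per 10000, and 1 control cell held 5 of the 12. *Guca2a* had a second high class in enterocyte-like cells, at 7.10 and 14.7, a log2 ratio of 1.05 (0.98 to 1.11). The cells left unnamed, 718 and 869 with medians of 1860 and 723 UMIs, had 12.2 and 30.6 UMIs of the 9 genes per 10000 in sum.

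**Figure D4:**
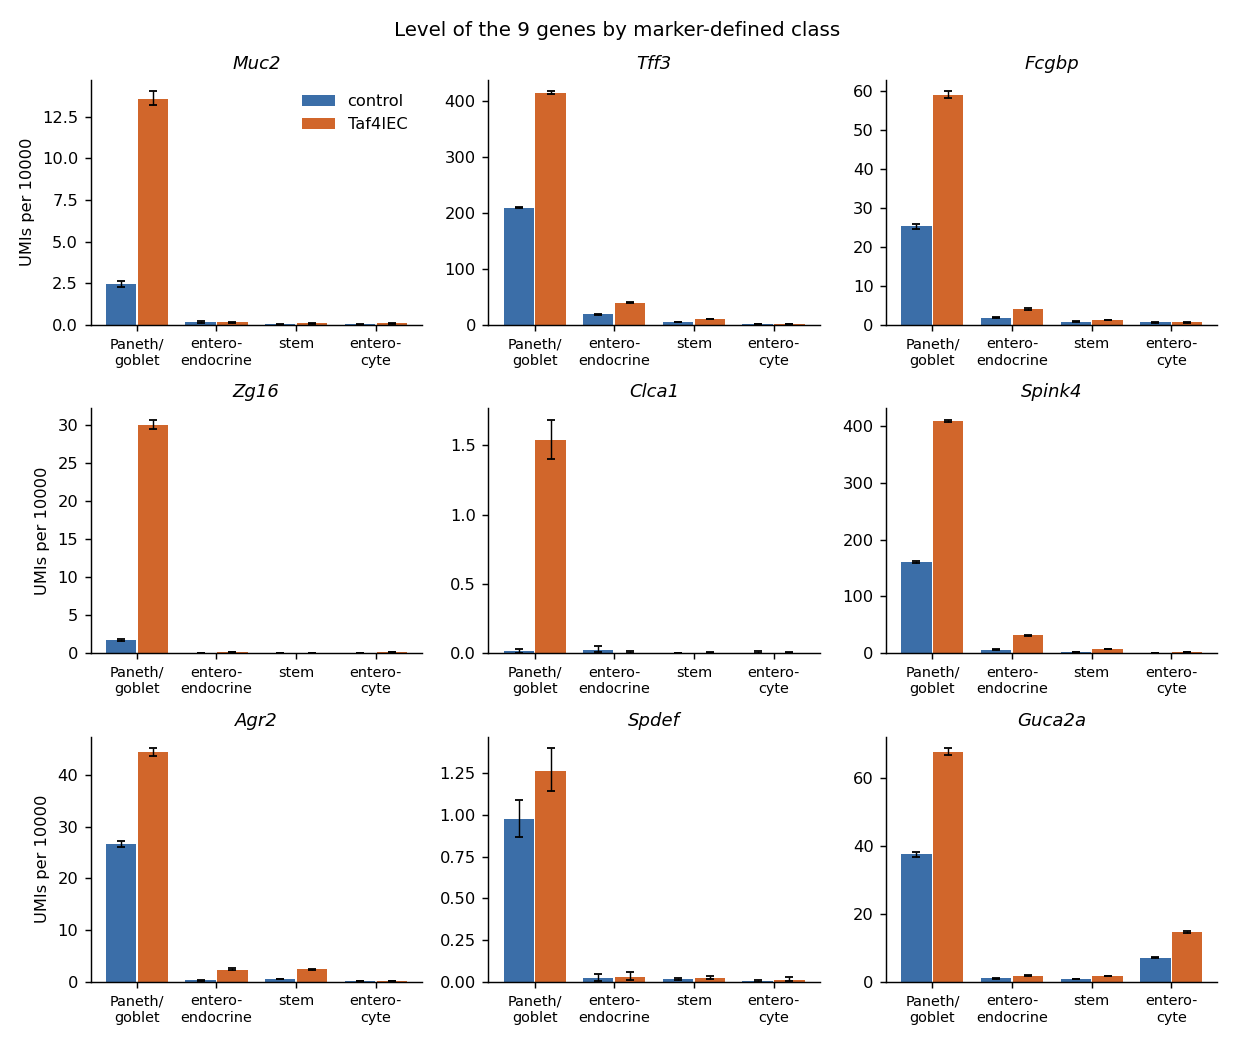
Level of each gene in UMIs per 10000 (linear axis from 0, 1 scale per gene) in 4 marker-defined classes, tuft-like cells not drawn, of the control (blue) and Taf4IEC (orange) libraries, with 95% Poisson intervals. Each gene is highest in Paneth/goblet-like cells, except *Clca1* in the control, where 4 UMIs there and 5 in enteroendocrine-like cells, 4 of these in 1 cell, leave no order. *Guca2a* has a second high class, enterocyte-like cells (7.10 and 14.7).

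Clustering the Paneth/goblet-like cells again, still without the 9 genes, gave 4 control sub-clusters of 54, 51, 44 and 37 cells and 3 Taf4IEC sub-clusters of 51, 47 and 34 cells. By the marker rule the control sub-cluster of 37 cells was goblet-like and the Taf4IEC sub-cluster of 34 cells, where the median depth was 1495 UMIs, Paneth-like. The others stayed unnamed. The name goblet-like did not mark the sub-cluster richest in goblet markers. It met 12 goblet and 5 Paneth markers, where the unnamed control sub-cluster of 44 cells met 15 and 14. Goblet markers summed to 9.73 and 12.6 per 10000 in them, Paneth markers to 113.6 and 146.4, and *Lyz1* stood at 48.9 and 9.46. The 9 genes did not peak in the sub-cluster so named, which does not show that they peak away from goblet cells. Their sum was highest in the unnamed control sub-cluster of 44 cells, at 740.0 per 10000 (734 to 746), against 451.8 in the goblet-like one, and in the Taf4IEC sub-cluster of 51 cells, at 1361 (1355 to 1368).

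*Zg16* and *Clca1* were uneven. *Zg16* stood at 6.68 in the control sub-cluster of 44 cells and at 0.138 or lower in the other 3. Of its 527 UMIs there, single cells held 248, 190 and 71, so that contrast rests on very few cells. In the Taf4IEC library *Zg16* stood at 60.6, 2.06 and 21.01 in the sub-clusters of 51, 47 and 34 cells, so that all 3 exceeded the 3 low control sub-clusters. Single cells held 2543, 2216 and 1492 of its 7710 UMIs in the sub-cluster of 51 cells. *Clca1* stood at 3.50, 0.0809 and 0.0832 in the same Taf4IEC sub-clusters. *Muc2* ran from 0.786 to 4.32 over the control sub-clusters and from 7.12 to 20.0 over the Taf4IEC ones, with no overlap between libraries. The ranges of *Spink4* (85.4 to 248 and 278.9 to 497.3), *Fcgbp* (16.0 to 36.2 and 39.3 to 83.3) and the sparse *Clca1* did not overlap either. Those of *Tff3*, *Agr2* and *Guca2a* did. Sub-clusters of a library are not replicates, and the share of all genes without overlap was not counted. *Spdef* ran from 0.872 to 1.09 and from 0.957 to 1.41, so that its ranges overlapped. The sub-cluster with most *Zg16* had the least *Lyz1* in both libraries, 9.46 in the control and 91.7 in Taf4IEC, yet the most *Ang4*, 39.8 and 105.

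**Figure D5:**
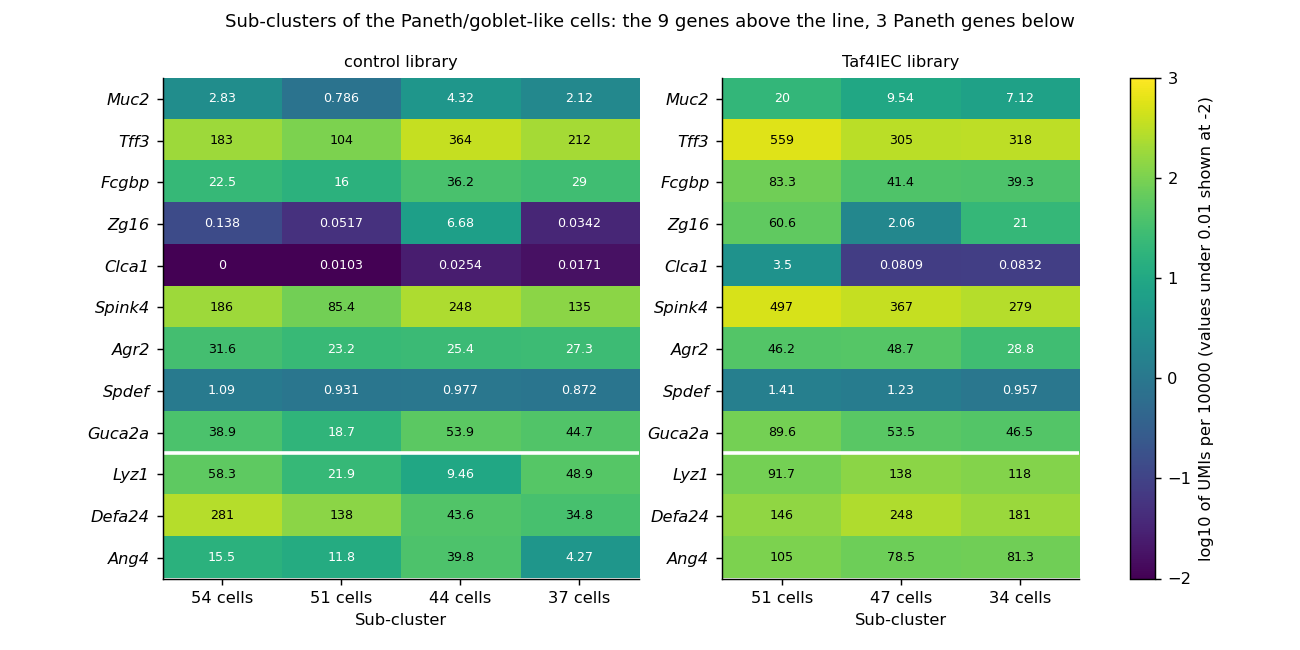
UMIs per 10000 of the 9 genes and of 3 Paneth genes in the sub-clusters of Paneth/goblet-like cells, printed in each box and coloured on a log10 scale, for 4 control and 3 Taf4IEC sub-clusters named by their number of cells. *Muc2* reaches 4.32 at most in the control and is at least 7.12 in Taf4IEC, while *Spdef* stays between 0.872 and 1.41 in all 7.

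Single Paneth/goblet-like cells carried most of the set at once. After thinning to 5000 UMIs, 173 control and 95 Taf4IEC cells were left. In the control 5 of the 9 genes were detected in 64 cells and 6 in 67, and 3 cells had 8. In the Taf4IEC library 6 were detected in 42 cells, 8 in 15 and all 9 in 2. Across these cells *Tff3* and *Spink4* had a Spearman rho of 0.67 among control and 0.66 among Taf4IEC cells, and *Muc2* and *Spink4* of 0.57 and 0.59. *Muc2* and *Lyz1* had a rho of 0.076 and −0.030, although 43 of 173 and 64 of 95 cells had both. The cells of a library share its preparation, and these values are descriptions.

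Other genes that make, modify or regulate mucus had smaller ratios in the median. Of the 16 secretory regulators on a list chosen by function, none was 2-fold higher or lower over all cells, with a median log2 ratio of −0.19. *Atoh1*, the factor that starts the secretory lineage, stood at 0.0981 and 0.118 per 10000. The highest ratios were those of *Ern2* (0.96) and *Ern1* (0.72), sensors of unfolded protein, and the lowest those of *Bhlha15* (−0.83) and *Elf3* (−0.62), transcription factors. In Paneth/goblet-like cells their median was 0.06, and *Ern1* (16 and 36 UMIs) was the gene of 16 at least 2-fold higher, while none was 2-fold lower.

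Mucin sugars are built by O-glycosylation enzymes, of which 13 of 18 had at least 50 UMIs. Over all cells 3 were at least 2-fold higher, 1 was 2-fold lower and the median log2 ratio was 0.45. *Fut2*, a fucosyltransferase, had a ratio of 1.62 and *Gcnt4*, a branching enzyme, 1.49, while *St3gal1*, a sialyltransferase, had −1.27 and *C1galt1c1*, a chaperone, −0.02. None of 9 genes of sugar precursors reached 2-fold, from *Cmas* (0.94) and *Slc35a2* (0.41) to *Gmds* (−0.28) and *Gne* (−0.27), with a median of 0.05. Of 18 genes of protein folding and secretion none reached 2-fold either, with a median of 0.09. *Dnajc10* (0.84) and *Qsox1* (0.57) were highest and *Fkbp11* (−0.59) and *Pdia5* (−0.34) lowest.

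In Paneth/goblet-like cells the folding list had a median of −0.10 with 2 of 18 at least 2-fold lower, *Fkbp11* at −1.30 and *Pdia5* at −1.10, and none higher. The O-glycosylation list had a median of 0.39 with 2 of 11 at least 2-fold higher, *Galnt4* at 1.59 and *B3gnt3* at 1.09. The sugar precursor list had a median of −0.03, with *Gne* 2-fold lower at −1.13. The medians of these lists lay between −0.10 and 0.39, beside 1.22 for the 9 genes and 0.03 for all 3173 genes of these cells.

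Relatives of the 9 genes were mixed. Of mucins and trefoil relatives, *Muc3* (0.108 and 0.315, a log2 ratio of 1.54) and *Tff2* (46 and 66 UMIs, 1.20) were at least 2-fold higher over all cells, whereas *Muc3a* (a log2 ratio of 0.30) and *Muc4* (0.0513 and 0.0512 per 10000) were not. Reads of *Muc3* and *Muc3a*, which are alike in sequence, can be split between them. Among relatives of the other members, *Spink1* (0.509 and 1.72, a log2 ratio of 1.76) and *Guca2b*, or uroguanylin (3.95 and 9.11, 1.21), were at least 2-fold higher. *Clca3b*, also a stem-like marker here, was 2-fold lower at 1.15 and 0.328, a log2 ratio of −1.82, and *Clca3a2* had −0.93. *Gucy2c*, the receptor of guanylin, stood at 0.396 and 0.559. In Paneth/goblet-like cells, of 4 such relatives with 50 UMIs none was at least 2-fold higher and 2 were lower, with a median log2 ratio of −0.44. *Guca2b* stood at 8.44 and 9.54 there, a ratio of 0.18, *Agr3*, the relative of *Agr2*, at 0.249 and 0.124, with −1.01 (−1.61 to −0.43), and *Clca3b* had −2.51. Of 4 mucins and trefoil relatives in these cells *Tff2* (20 and 43 UMIs, a log2 ratio of 1.17) was at least 2-fold higher and none lower.

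Over the 13 control and 15 Taf4IEC clusters, the genes whose level most resembled that of the summed 9 were mainly Paneth genes. Likeness was the lower of both libraries' Pearson r between log2 levels with 0.1 added, over genes with at least 200 UMIs. *Lyz1* came first (r = 0.931 in the control and 0.944 in Taf4IEC), then *Ang4* (0.960 and 0.884), *Itln1* (0.870 and 0.864), *Defa24*, *Plcb1*, *Tpsg1*, *Defa36*, *Ern2*, *Defa3* and *Defa26*. Taken alone, *Spdef* was most like *Tpsg1*, *Ern2* and *Creb3l4*, all goblet markers, and *Guca2a* was most like *Guca2b* (0.843 and 0.852). *Muc2* was most like *Tpsg1* (0.931 and 0.883), *Defa3* and *Defa30*. The points share a library and a single high cluster, so r describes where a gene is highest and little else.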

How the data were processed

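Single-cell libraries of 1 control and 1 Taf4IEC enteroid culture were used. Per the submitters' notes, reads went through bcl2fastq 2.17.1.14 and Cell Ranger 3.1 on mm10, and Seurat 3.1.4 was used afterwards. The authors deposited UMI counts per gene and cell, not normalized, of cells that had already passed their filter on genes and mitochondrial reads. From these counts, UMIs were summed over cells and divided by all UMIs of those cells. Levels came from pandas 2.3.3 and intervals from scipy 1.17.1, with numpy 2.4.6 under Python 3.11.15. A difference was called at 2-fold, since 1 library per condition allows no test.

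Each library was clustered with Seurat 5.3.0 in R 4.3.3 (LogNormalize, 2000 variable genes without the 9 genes, UMI count and mitochondrial percent regressed out, 20 principal components, resolution 0.9). A marker was met with 10 UMIs at 1.5 times the mean level of the libraries, and 3 were needed for a name. The name Paneth/goblet-like, for at least 3 markers of both lists ahead of all other classes, was added after the clusters had been seen, because the first rule left those clusters unnamed. Scrublet in scanpy 1.11.5 predicted 10 doublets among control cells (0.390%) and 0 among Taf4IEC cells. They were kept, and so few calls leave doublets in practice untreated. Motifs were searched in RefSeq promoters. Cells were thinned without replacement. Ratios, intervals and thinning were tested on simulated independent counts, which lack the uneven spread over cells seen here. Clustering and naming were not tested on simulated data. The 9 genes, lists and markers were chosen with earlier results of these data known. In a list, the genes with the 2 highest and 2 lowest ratios were named among those with 50 UMIs, and *Atoh1*, *Gucy2c*, *Galnt4*, *B3gnt3*, *Pdia5* in Paneth/goblet-like cells, *Lyz1*, *Ang4*, *Clps* and *Defa24* were named after their values had been seen.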

Additional observations from a re-analysis of the deposited data

How the results depend on the processing

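Over all cells, the median log2 ratio of the 9 genes (1.502) was 1.32 without mitochondrial, ribosomal protein, *Gm42418* and *AY036118* genes in the total, 1.26 with cells weighted equally, and 1.18 and 1.46 after thinning each cell to 500 and 5000 UMIs. Between 6 and 8 genes stayed at least 2-fold higher under the 8 alternatives. With cells thinned to 500 UMIs *Tff3* had a log2 ratio of 0.997, just under 2-fold, and with cells weighted equally *Guca2a* had 0.97. In Paneth/goblet-like cells the median (1.22) was 1.65 at resolution 0.5, 1.57 with 30 principal components, 1.38 with both libraries clustered together, 1.56 with markers compared with other cells of the same library, and 1.303 with each cell classed by itself. The count at least 2-fold higher (5) was 8 at resolution 0.5, 8 with 30 components and 8 with markers compared within a library. These settings put more control cells into the class, 269, 266 and 634 in place of 186. The other alternatives left the count between 5 and 7. The highest summed level in a control sub-cluster (740.0) was 729.2 at resolution 1.4. The share of cells with *Muc2* was 1.25% and 5.58% at 500 UMIs per cell, 4.78% and 11.6% at 5000, and 7.30% and 13.5% without thinning, in the control and Taf4IEC libraries. Leaving out the 2 cells with most UMIs of a gene and the name Paneth/goblet-like were chosen after seeing the data. Under the first naming rule no cluster was goblet-like or Paneth-like, so it gave no value. No log2 ratio of the 9 genes changed sign under any alternative, over all cells or in Paneth/goblet-like cells. With genes of at least 1 UMI in each library as background, 13.2% of 14997 genes were at least 2-fold higher and 5.98% lower. No paired analysis was possible because each condition had 1 library.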

Other observations

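Among goblet markers outside the 9 genes, chemokine and lipase genes differed in the opposite direction in Paneth/goblet-like cells. *Ccl9*, a chemokine, had 86 UMIs among control and 10 among Taf4IEC cells, 0.274 and 0.0334 per 10000, a log2 ratio of −3.04 (−4.15 to −2.09). *Pla2g10*, a secreted phospholipase, stood at 0.313 and 0.0602, a log2 ratio of −2.38 (−3.19 to −1.64). *Rep15* stood at 0.0702 and 0.264, with a log2 ratio of 1.91 (1.22 to 2.67), and *Tpsg1*, a tryptase, at 1.27 and 2.52 with 0.99 (0.82 to 1.17). These genes were named after their values had been seen.

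When each cell was classed by itself from the marker lists, 158 control and 53 Taf4IEC cells were goblet-like. *Muc2* stood at 1.97 (1.81 to 2.14) and 12.9 (12.3 to 13.4) per 10000 in them, *Zg16* at 1.22 and 19.6, *Spdef* at 0.878 and 1.43 and *Lyz1* at 14.5 and 52.1. Of these cells 50 and 10 lay near the limit of the class, and 116 and 42 were in the Paneth/goblet-like clusters. In the 66 and 146 cells classed as Paneth-like, *Muc2* stood at 2.66 and 11.2. Of these, 15 and 73 lay near the limit of the class and 50 and 81 were in the Paneth/goblet-like clusters, and their median depths were 14944 and 2488 UMIs.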
